A study of Caenorhabditis elegans with 30 samples.

Results

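Larval timing in Caenorhabditis elegans was followed across 6 genotypes through 9 genes: lin-14, lin-28, lin-29, lin-42, lin-46, hbl-1, nhr-23, nhr-25 and dre-1. They were taken by gene name, without reference to their values, and all 9 were listed among the 20484 genes of every table. The samples were whole worms, labelled as late in the fourth larval stage (L4), from bleach-synchronised populations kept at 20 °C on OP50 bacteria, with 5 replicates per genotype and 30 samples in all. The groups were wild type (WT), the double mutant of his-72(tm2066) and his-71(ok2289), the single mutant nuo-6(qm200), the single mutant daf-2(e1370), and the daf-2 and nuo-6 triple mutants, which join each of these alleles to both his mutations. Below they are called WT, the double mutant, daf-2, nuo-6, the daf-2 triple and the nuo-6 triple. his-71 and his-72 encode histone H3.3, the histone H3 form placed in chromatin outside DNA replication; other H3.3 genes of the worm carry no listed mutation, so by H3.3 loss only the absence of these 2 genes is meant. daf-2 encodes the insulin receptor and nuo-6 a subunit of respiratory chain complex I.

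The heterochronic pathway decides which larval stage the cells of the worm's skin carry out. lin-14, lin-28 and hbl-1 hold early fates and are turned down by microRNAs as larvae grow, much of it by blocking translation, so that their mRNA is only part of their regulation. lin-29 acts at the end, when the skin stops dividing, stops moulting and makes the adult cuticle. Moulting is driven in each larval stage by an oscillation in the skin in which nhr-23, nhr-25 and lin-42 take part, and the level of such a gene depends on where in the moult cycle the animals stand.

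The tables give 1 FPKM value (fragments per kilobase of transcript, scaled to the mapped fragments of the library) per gene and genotype, here called a pool. There is no spread between replicates, hence no test and no p-value, and the depth is unknown. Every fold is a ratio of 2 deposited values, and a gene was called higher or lower from a 2-fold ratio on, provided that the larger value reached 5 FPKM. Summed FPKM ran from 935102 in the daf-2 triple to 1508331 in nuo-6. his-71 and his-72 had at most 0.408 FPKM in the pools that lack them, and at least 223 in the others. The daf-2 and nuo-6 alleles are point mutations, whose mRNA level checks no label: daf-2 mRNA was highest in daf-2 (32.2 FPKM) and nuo-6 mRNA in nuo-6 (634 FPKM).

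The pools differed widely in genes of adults and gametes. The 6 yolk protein genes, which the intestine transcribes in adult hermaphrodites, summed to 47.1 FPKM in WT, 20.6 in the double mutant, 5.01 in daf-2, 6259 in the daf-2 triple, 1513 in nuo-6 and 5.78 in the nuo-6 triple. The 7 collagens of the adult cuticle summed to 1318, 652, 9.76, 343, 4267 and 294 FPKM in the same order. The daf-2 triple and nuo-6 thus stood apart from the other 4 pools in yolk genes, and daf-2 stood lowest in both lists. The lists did not run together, since the daf-2 triple was highest in yolk genes and below WT in adult collagens. Gamete genes moved too: 12 oocyte genes summed to 92.9, 100.3, 36.2, 3512, 551 and 54.1 FPKM, and 11 sperm genes to 77.7, 134, 1.95, 54.2, 407 and 35.5. Whole animals were measured, so fewer cells of a type and less RNA per cell cannot be told apart in anything that follows, and the part of these adult and gamete transcripts in the timing gene results was not tested. Each genotype is also a single pool. A difference in stage at harvest within the late L4 label therefore cannot be told apart from genotype in any comparison below.

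**Figure D1:**
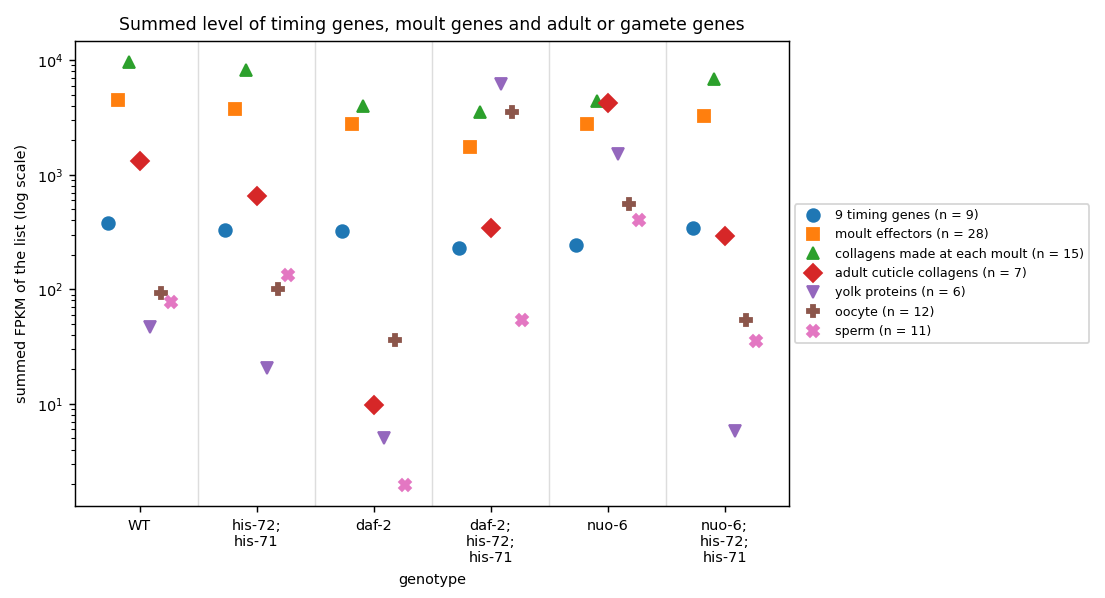
Summed FPKM (log axis) of the 9 timing genes and of 6 other gene lists in each genotype, 1 point per list and pool, with the number of genes in the legend. The timing genes stay between 231 and 377 FPKM while yolk genes run from 5.01 to 6259.

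Summed over the 9 genes the level varied far less, from 231 FPKM in the daf-2 triple and 244 in nuo-6 to 377 in WT, with lin-42 the largest part. Single genes moved in different ways.

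The early timers came first. hbl-1, a zinc finger transcription factor related to fly Hunchback that keeps the second larval program, varied most of all members. It had 4.26 FPKM in WT, 5.27 in the double mutant, 13.7 in daf-2, 23.1 in the daf-2 triple, 3.24 in nuo-6 and 8.39 in the nuo-6 triple. Both daf-2 pools were above all others, and the range was 7.12-fold. Without the daf-2 triple and nuo-6 the range of the other 4 pools was 3.23-fold. lin-28, an RNA-binding protein that blocks maturation of the let-7 microRNA, had 16.5 FPKM in WT, 18.3 in the double mutant, 34.0 in daf-2, 39.3 in the daf-2 triple, 17.1 in nuo-6 and 23.2 in the nuo-6 triple. Again the daf-2 pools were the highest, and in both genes each H3.3 mutant pool lay above its own background.

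lin-14, a nuclear protein that sets first-stage fates and is the classic target of the lin-4 microRNA, did not share that order. It had 25.8 FPKM in WT, 27.6 in the double mutant, 34.6 in daf-2, 19.3 in the daf-2 triple, 17.3 in nuo-6 and 34.4 in the nuo-6 triple. The daf-2 and nuo-6 triple pools were highest and almost level. The daf-2 triple and nuo-6 were lowest, and without these pools the range was 1.34-fold in place of 2.0-fold. lin-28 lies on chromosome I (WBGene00003014, 8407802 to 8410804) and in WBcel235 overlaps the oppositely oriented gene F02E9.1, which had 72.02 FPKM in nuo-6 and between 34.3 and 42.3 elsewhere. lin-14 (WBGene00003003, X, 11468500 to 11484267) and hbl-1 (WBGene00001824, X, 5822277 to 5827691) overlap no other coding gene there. These positions are the authors' listed loci, whose starts count from 0 and are given here counted from 1. For lin-14 the listed locus is shorter than in WBcel235, where the gene runs from 11465560 to 11485871.

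**Figure D2:**
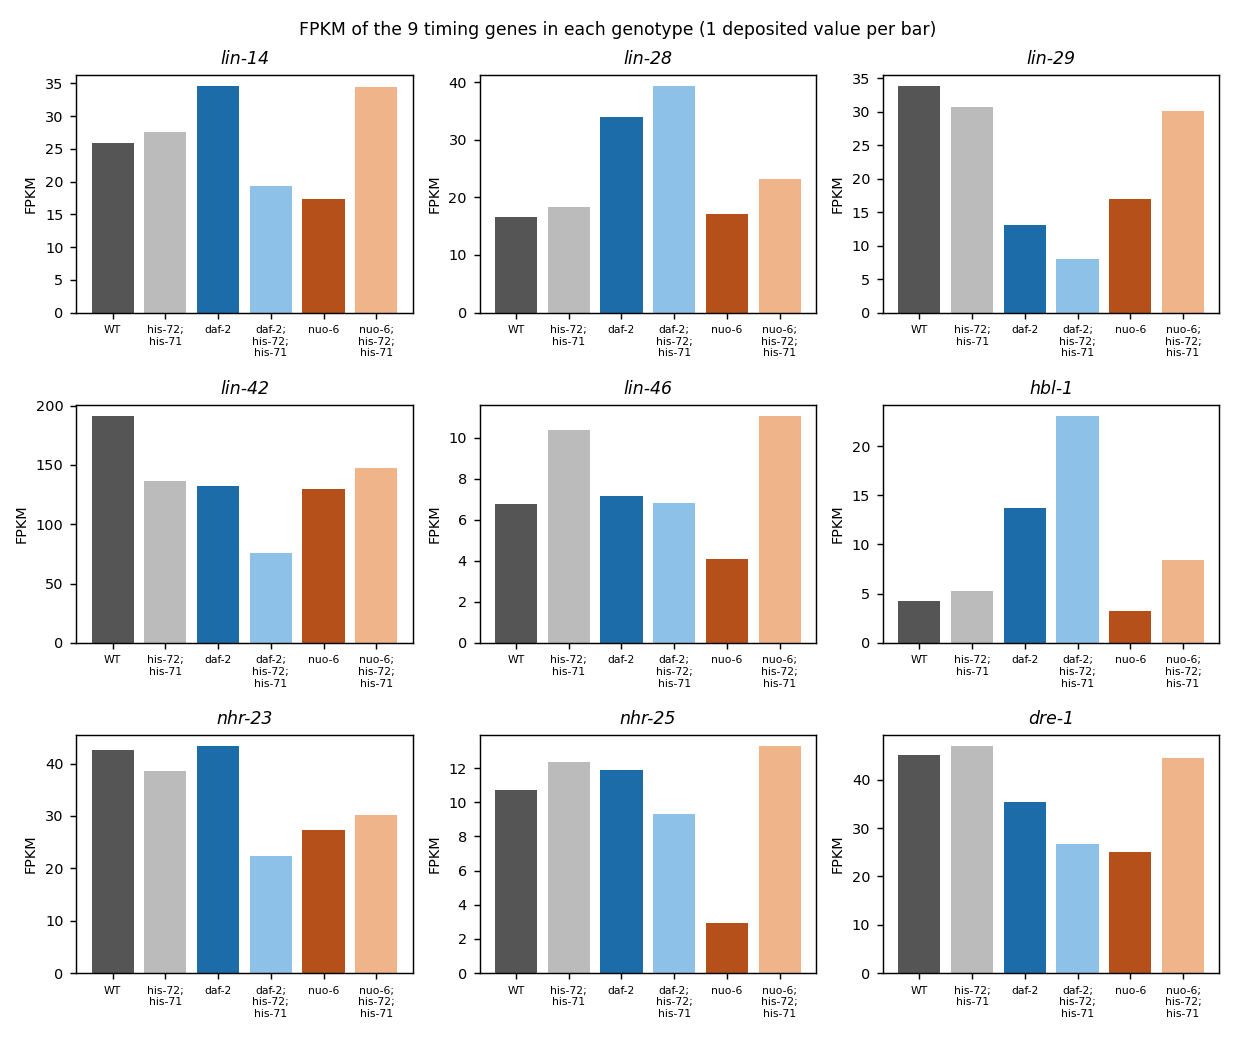
FPKM of each of the 9 timing genes in the 6 genotypes, 1 panel per gene, each with its own linear axis from 0 and 1 deposited value per bar, so no error bars. hbl-1 and lin-28 are highest in the 2 daf-2 pools, lin-29 is lowest there, and nhr-25 is lowest in nuo-6 at 2.95 FPKM.

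lin-29, the zinc finger factor that ends larval development of the skin, ran the other way from hbl-1 and lin-28. It had 33.9 FPKM in WT, 30.7 in the double mutant, 13.2 in daf-2, 7.95 in the daf-2 triple, 17.04 in nuo-6 and 30.2 in the nuo-6 triple. WT, the double mutant and the nuo-6 triple lay close together, nuo-6 stood below them and both daf-2 pools below nuo-6. The range was 4.26-fold over 6 pools and 2.58-fold over the 4 without the daf-2 triple and nuo-6. lin-29 values are uncertain: its listed locus (WBGene00003015, II, 11916513 to 11935343) is shared with hmg-12, a gene on the opposite strand, and strandedness of the libraries is not given in the sources used here. hmg-12 had 113 FPKM in WT, 90.8 in the double mutant, 29.7 in daf-2, 139 in the daf-2 triple, 91.3 in nuo-6 and 57.2 in the nuo-6 triple. In daf-2 both genes were low, whereas in the daf-2 triple lin-29 was at its lowest and hmg-12 at its highest.

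The partner and the repressor of lin-29 were in the list of other heterochronic genes. mab-10, a cofactor with which LIN-29 ends the moults, had 39.8 FPKM in WT, 34.0 in the double mutant, 5.995 in daf-2, 5.87 in the daf-2 triple, 29.9 in nuo-6 and 27.9 in the nuo-6 triple. lin-41, a let-7 target that silences lin-29 and mab-10 mRNA in larvae, had 17.9, 23.1, 70.6, 57.2, 17.96 and 28.8 FPKM in the same order. mab-10 was thus lowest and lin-41 highest in both daf-2 pools, whether or not H3.3 genes were present.

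lin-46, a gephyrin-like protein that acts downstream of lin-28 against hbl-1 activity, was among the members with low FPKM. It had 6.76 FPKM in WT, 10.4 in the double mutant, 7.18 in daf-2, 6.82 in the daf-2 triple, 4.08 in nuo-6 and 11.1 in the nuo-6 triple. The double mutant and nuo-6 triple were the high pools and nuo-6 the low one. Its locus (WBGene00003031, V, 12968853 to 12970732) holds 1 annotated transcript in WBcel235.

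Of the genes tied to the moult cycle, nhr-25 had the sharpest single departure. This nuclear receptor, the worm relative of fly Ftz-F1, is needed for moulting and for the shape of skin cells. It had 10.7 FPKM in WT, 12.4 in the double mutant, 11.9 in daf-2, 9.29 in the daf-2 triple, 2.95 in nuo-6 and 13.3 in the nuo-6 triple. The other 5 pools lay within 9.29 to 13.3 FPKM and nuo-6 was below them. nhr-23, the relative of fly DHR3 and vertebrate ROR that starts each moult, had 42.5 FPKM in WT, 38.6 in the double mutant, 43.3 in daf-2, 22.3 in the daf-2 triple, 27.4 in nuo-6 and 30.2 in the nuo-6 triple. Its range was 1.94-fold, and daf-2 and WT were almost level at the top.

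lin-42, the relative of the Period clock proteins, was the most abundant member in each pool on the FPKM scale. It had 191 FPKM in WT, 137 in the double mutant, 132 in daf-2, 76.0 in the daf-2 triple, 130.1 in nuo-6 and 147 in the nuo-6 triple. WT was the high pool and the daf-2 triple the low one, with the other 4 between 130.1 and 147 FPKM. dre-1, an F-box protein related to human FBXO11 that marks the factor BLMP-1 for destruction, had 45.1 FPKM in WT, 46.98 in the double mutant, 35.5 in daf-2, 26.7 in the daf-2 triple, 25.1 in nuo-6 and 44.5 in the nuo-6 triple. Its range, 1.87-fold, was the narrowest of the members. The authors' loci for both genes are shorter than in WBcel235: lin-42 (WBGene00018572) is listed at II, 1233244 to 1244035, where the annotation runs on to 1252359, and dre-1 (WBGene00001089) at V, 6533615 to 6538062, where it runs on to 6546500. Both lie on the minus strand, so the part not covered is upstream. nhr-23 (WBGene00003622) is listed at I, 7214745 to 7221781, and nhr-25 (WBGene00003623) at X, 13008493 to 13013961.

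The comparison of the double mutant with WT asks what H3.3 loss does alone. None of the 9 genes was higher or lower by 2-fold, beside 2.04% of 10972 compared genes (1.14% higher and 0.902% lower). The largest ratio was 1.53-fold, for lin-46, and lin-42 was 1.40-fold lower. The median log2 ratio of the members was 0.10 and that of all compared genes 0.07. None of 13 other heterochronic genes, 11 other moult transcription factors, 28 moult effectors and 14 collagens made at each moult passed the rule either. With pools scaled to equal levels of 30 muscle, neuron and epidermis genes (somatic scaling, below) the split of all genes was 1.47% higher and 0.747% lower.

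**Figure D3:**
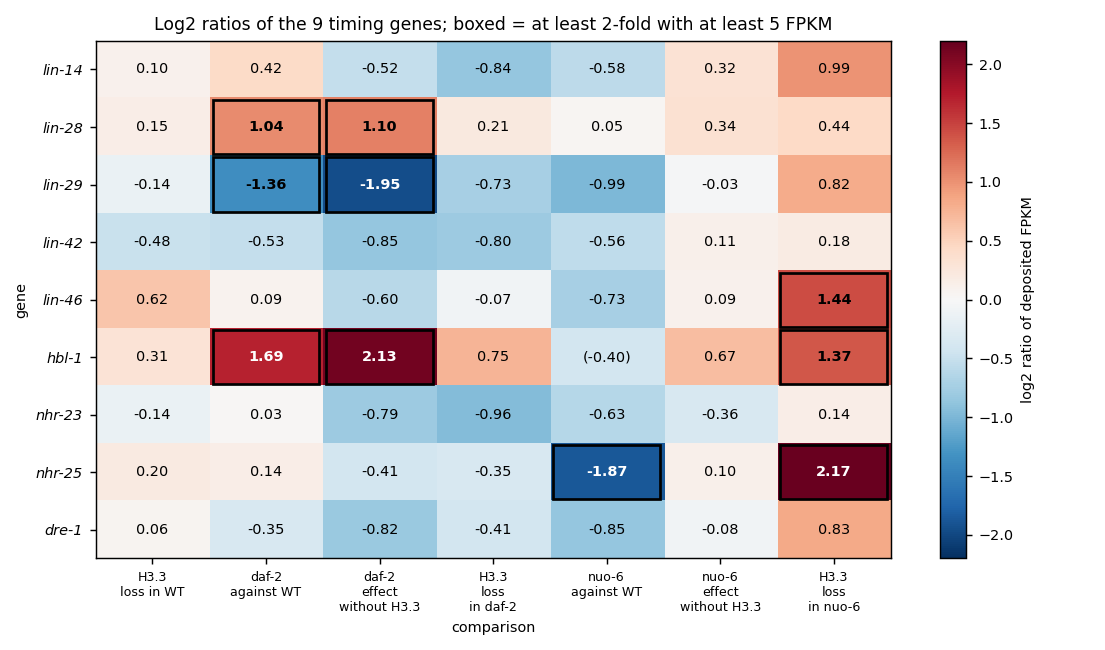
Log2 ratios of the deposited FPKM for the 9 timing genes (rows) in the 7 comparisons (columns). Boxed cells in bold passed 2-fold with at least 5 FPKM, and the value in brackets (hbl-1, nuo-6 against WT) had under 5 FPKM in both pools.

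In daf-2 against WT, where insulin signalling is reduced, hbl-1 was 3.23-fold and lin-28 2.06-fold higher, and lin-29 was 2.58-fold lower. So 2 of 9 members were higher and 1 lower, beside 15.1% and 13.2% of all 11405 compared genes (28.3% in either direction), so the share of members was near the background. The other 6, lin-14 among them, lay within 1.44-fold of WT, with nhr-23 (1.02-fold), lin-46 (1.06-fold) and nhr-25 (1.11-fold) the nearest. lin-28 passed only narrowly and fell to a log2 ratio of 0.86 under somatic scaling, which placed the daf-2 pool 0.18 above WT on the log2 scale. Under that scaling all genes split into 12% higher and 16.4% lower. Markers of other cell types moved in the same comparison: 3 of 11 neuron genes were higher and 0 lower (median log2 ratio 0.96, summed FPKM 660 in WT and 1233 in daf-2), and 10 of 12 germline genes were lower (median -2.03, 521 and 151 FPKM). Their part in the member ratios was not tested, and the neuron genes are among the 30 used for somatic scaling.

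Of 13 other heterochronic genes compared in daf-2, 4 were higher and 1 lower. daf-12, the steroid receptor that joins the dauer decision to stage timing, was 5.85-fold higher (28.3 FPKM in WT and 165 in daf-2), and lin-41 was 3.94-fold higher. The lower gene was mab-10, at 6.65-fold. The remaining higher ones were din-1, a DAF-12 corepressor (71.2 and 156 FPKM), and sea-2 (15.5 and 36.6 FPKM), both named after their values were seen. Among moult transcription factors, nhr-85, a relative of fly E75 that cooperates with NHR-23, was 4.83-fold higher (21.1 and 102 FPKM), the 1 gene of 11 that passed.

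The same daf-2 allele without H3.3 genes, the daf-2 triple against the double mutant, gave the same 3 members in the same directions. hbl-1 was 4.37-fold higher, lin-28 2.14-fold higher and lin-29 3.86-fold lower. The background was 13.2% higher and 13.5% lower of 11871 genes (26.7% in either direction). Here the other 6 members were all lower, by 1.33-fold (nhr-25) to 1.80-fold (lin-42), and the member median was -0.60 beside -0.07 for all genes. Other somatic lists had medians of -1.03 for intestine, -0.91 for muscle, -0.14 for epidermis and 0.10 for neuron genes. Lower were 5 of 9, 3 of 10, 1 of 9 and 0 of 10 in that order, and their part in the member ratios was not tested. With a ratio of 1.5 in place of 2, 2 members were higher and 5 lower, beside 48.2% of all genes in either direction. mab-10 was 5.79-fold lower and lin-41 2.48-fold higher. nhr-85 had 16.03 FPKM in the double mutant and 17.8 in the daf-2 triple, and daf-12 had 32.0 and 60.5. In the daf-2 triple muscle genes were also low (10 genes summed to 4718 FPKM, beside 8195 in the double mutant), and 10 early embryo genes, chosen after the tables were seen, summed to 16.2 FPKM beside 0.852, with tbx-9 at 7.33 and 5 of them under 1 FPKM. hbl-1, lin-28 and nhr-25 are also active in embryos, and the part of such transcripts was not tested.

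H3.3 loss within daf-2, the daf-2 triple against daf-2, moved many genes but no member past 2-fold: 0 of 9, beside 29.4% of 11663 compared genes (17.1% higher and 12.3% lower). nhr-23 came nearest, 1.94-fold lower (43.3 to 22.3 FPKM), followed by lin-14 at 1.79-fold lower and lin-42 at 1.74-fold lower. hbl-1 was 1.68-fold higher and became 1 of 9 past the rule with somatic scaling, at a log2 ratio of 1.08. This comparison shares the daf-2 pool with that of daf-2 and WT. Somatic scaling split all genes into 23.5% higher and 5% lower. The member median was -0.41 and the median of all genes -0.15. Other somatic lists had medians of -0.87 for muscle, -0.83 for neuron, -0.83 for intestine and -0.27 for epidermis genes. Lower were 3 of 10, 1 of 11, 4 of 9 and 1 of 9 in that order, and 1 epidermis gene was higher. Germline genes had a median of 2.44, with 11 of 12 higher. The part of these lists in the member ratios was not tested. Of 11 moult transcription factors 3 were lower, 2 with somatic scaling: nhr-85 (5.72-fold, 102 to 17.8 FPKM), myrf-1 (2.53-fold) and blmp-1 (2.197-fold), the last being the target of DRE-1. daf-12 was 2.73-fold lower. nhr-85 and daf-12 had been high in daf-2, whereas mab-10 (5.995 and 5.87 FPKM) and lin-41 (70.6 and 57.2 FPKM) were near their daf-2 values.

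In nuo-6 against WT, where a mild defect of complex I is present, 1 of the 8 compared members was lower and 0 higher, beside 5.47% lower and 20.6% higher of 11716 compared genes (26.1% in either direction). nhr-25 was 3.64-fold lower. lin-29 was 1.99-fold lower, just inside the limit, and passed with pools set to equal median ratios (log2 -1.01). hbl-1 had under 5 FPKM in both pools and was not compared. With lin-29 counted, 6 of the others were lower by 1.47-fold to 1.99-fold, and lin-28 was nearly level at 1.03-fold higher. The member median was -0.68 beside 0.12 for all genes.

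Other somatic lists were lower by median too, but to different degrees. Their median log2 ratios were -0.66 for neuron, -0.50 for epidermis, -0.28 for muscle and -0.23 for intestine genes. Summed muscle FPKM was 9115 in WT and 10945 in nuo-6. The part of such differences in the member ratios was not tested. The 30 muscle, neuron and epidermis genes used for somatic scaling were lower in nuo-6 by a median log2 factor of -0.49, in a pool where sperm, oocyte and yolk genes were high. Scaled by them, lin-14 (-0.09), lin-42 (-0.07) and nhr-23 (-0.15) lay near WT, hbl-1 turned from -0.40 to 0.09, lin-28 had 0.53, lin-29 -0.50 and dre-1 -0.36. nhr-25 stayed past 2-fold at -1.38. All genes then split into 34.1% higher and 2.56% lower.

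Other genes of the moult were lower with them on the deposited scale. kin-20, a casein kinase and partner of LIN-42, was 2.05-fold lower, the 1 of 13 other heterochronic genes that passed. Of 11 moult transcription factors, nhr-91 (2.503-fold) and grh-1 (2.07-fold), the worm Grainyhead and a driver of the oscillation, were lower. skr-1, the adaptor that links F-box proteins such as DRE-1 to their ligase, was 2.66-fold lower. None of these 4 stayed past the rule with somatic scaling.

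Without H3.3 genes, the timers in the pool with the nuo-6 allele lay near their reference. In the nuo-6 triple against the double mutant 0 of 9 members passed, beside 12.5% of 11374 compared genes (5.76% higher and 6.73% lower). Of the 9, 8 lay within 1.28-fold, and hbl-1 was 1.59-fold higher. nhr-25 had 12.4 FPKM in the double mutant and 13.3 in the nuo-6 triple. None of the other heterochronic genes, moult transcription factors or moult effectors passed either.

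H3.3 loss within nuo-6, the nuo-6 triple against the same nuo-6 pool as above, had 3 of 9 members higher and 0 lower, beside 6.92% higher and 16.9% lower of 11900 genes (23.8% in either direction). nhr-25 was 4.51-fold higher (2.95 to 13.3 FPKM), lin-46 2.71-fold (4.08 to 11.1 FPKM) and hbl-1 2.59-fold (3.24 to 8.39 FPKM). lin-14, at 1.99-fold, was just inside the limit and passed with equal median ratios (log2 1.02). All 9 were above their nuo-6 value, with a median of 0.83 beside -0.10 for all genes. Neuron genes had a like median, 0.89, with 3 of 10 higher and 0 lower, while 7 of 12 germline genes were lower (median -1.22), and their part in the member ratios was not tested. Under somatic scaling the same 3 genes still passed and the member median was 0.45, but lin-42 (-0.20) and nhr-23 (-0.23) turned to lower, and all genes split into 3.73% higher and 25.5% lower. All 3 had under 20 FPKM in both pools, so none is counted with that minimum. Of 11 moult transcription factors 3, nhr-91, grh-1 and bed-3, were 2.38-fold to 2.497-fold higher, and none of them passed with somatic scaling.

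Whether an allele acts alike with and without H3.3 genes was read from the difference of the 2 log2 ratios, which share no pool. For daf-2, 0 of 9 members differed by 2-fold, beside 32.8% of 12241 genes (17.7% higher without H3.3 genes and 15% lower). The differences ran from -0.94 for lin-14, higher in daf-2 and lower in the triple, to 0.44 for hbl-1, and that of lin-28 was 0.06. For nuo-6, 2 of 9 members differed by 2-fold, both higher without H3.3 genes, beside 7.19% higher and 19.3% lower of 12104 genes (26.5% in either direction). These were nhr-25 (1.97) and hbl-1 (1.07), and hbl-1 had at most 8.39 FPKM in the 4 pools concerned. The other 7 differed in the same direction, by 0.28 for nhr-23 to 0.97 for lin-29, but with somatic scaling lin-28 (-0.14) and nhr-23 (-0.15) turned and hbl-1 (0.63) was no longer past 2-fold, while nhr-25 was (1.54). With 1 value per pool none of these differences can be set against replicate error.

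**Figure D4:**
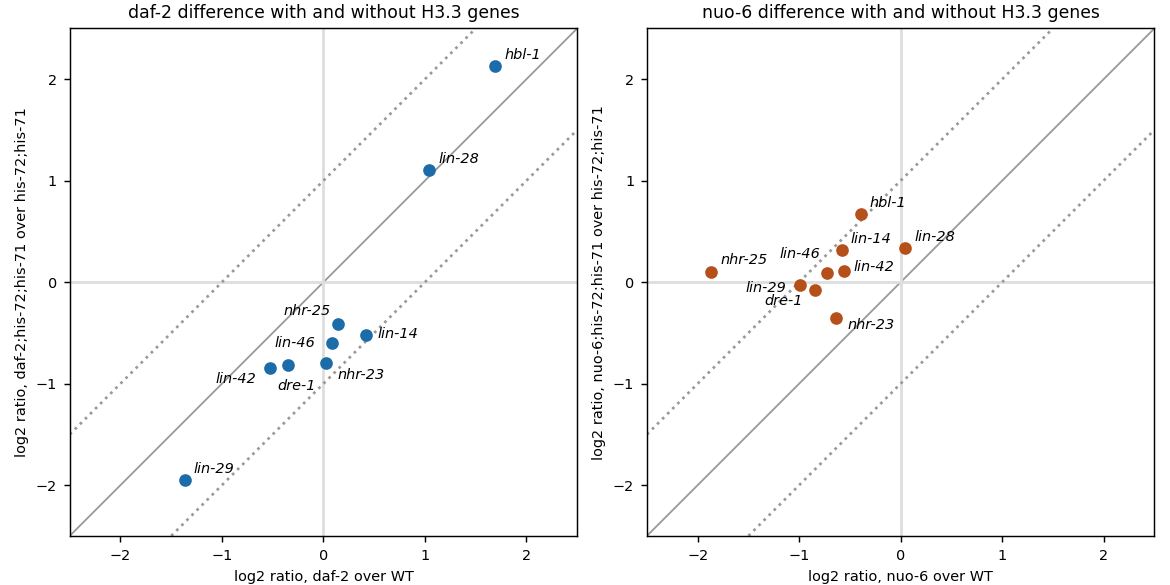
Log2 ratio of each timing gene for daf-2 (left) and nuo-6 (right), in the presence of his-71 and his-72 on the x axis and in their absence on the y axis. The solid line marks equal ratios and dotted lines a 2-fold difference. For daf-2, hbl-1, lin-28 and lin-29 lie farthest from 0 on both axes, and for nuo-6 all 9 genes lie above the solid line on the deposited scale, nhr-25 farthest, whereas lin-28 and nhr-23 turn with somatic scaling.

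Genes that build and shed the cuticle were followed in further lists. Of 28 moult effectors, 4 were lower in daf-2, a share near the 13.2% of all genes. The daf-2 triple had 13 lower against the double mutant, beside 13.5% of all genes, and 8 lower against daf-2, beside 12.3%. In nuo-6 11 were lower, beside 5.47%, and in these 4 comparisons 0 were higher. Somatic scaling gave 5, 10, 3 and 2 lower in that order. All genes were then lower at 16.4% in daf-2, 5% for H3.3 loss in daf-2 and 2.56% in nuo-6. For the daf-2 triple against the double mutant, 26.2% of all genes passed in either direction. H3.3 loss in nuo-6 went the other way, with 2 higher, mlt-7 (2.44-fold) and nas-36 (2.04-fold), and 0 lower, beside 6.92% of all genes higher, and with somatic scaling 0 were higher. mlt-10, a protein needed to shed the old cuticle, had 169 FPKM in WT, 136 in the double mutant, 32.7 in daf-2, 33.9 in the daf-2 triple, 55.5 in nuo-6 and 83.1 in the nuo-6 triple. The astacin protease gene nas-36 had 17.8, 19.4, 5.46, 6.06, 5.39 and 11.01 FPKM in that order. Both genes were thus highest in WT and the double mutant.

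Of 14 collagens made at each moult, 11 were lower in daf-2 and 7 in nuo-6, beside 13.2% and 5.47% of all genes, with 0 higher. With H3.3 loss in nuo-6, 1 of 14, col-17, was higher, at 3.84-fold, beside 6.92% of all genes, and 0 were lower. In the daf-2 triple against the double mutant 11 of 15 were lower and 2 higher, beside 13.5% and 13.2% of all genes. The higher ones, dpy-14 (0.385 and 145 FPKM) and dpy-17 (15.4 and 163 FPKM), ran against the rest of the list. dpy-14 had at most 0.804 FPKM outside the daf-2 triple, so its values do not bear out the name of the list. The early embryo genes were also highest in the daf-2 triple, and their part in dpy-14 was not tested. With somatic scaling 14 of 14 collagens of this list were lower in daf-2, 10 of 15 in the daf-2 triple and 2 of 14 in nuo-6. All genes were then lower at 16.4% in daf-2 and 2.56% in nuo-6. For the daf-2 triple against the double mutant, 26.2% of all genes passed in either direction. The adult collagen col-19, a standard reporter of lin-29 activity, had 7.10 FPKM in WT, 4.603 in the double mutant, 1.29 in daf-2, 158 in the daf-2 triple, 1194 in nuo-6 and 3.47 in the nuo-6 triple. Most adult collagens did not follow col-19 in the daf-2 triple: against the double mutant 2 of 7 were higher and 5 lower, with a median log2 ratio of -1.65. bli-1, a collagen of the adult cuticle struts, had 51.1 FPKM in the double mutant and 5.11 in the daf-2 triple.

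Seam cells, the skin stem cells whose divisions the heterochronic genes time, were followed with 11 genes, 9 of them compared in daf-2. Of these 4 were higher and 1 lower, beside 15.1% and 13.2% of all genes. The worm engrailed gene ceh-16 went from 1.29 FPKM in WT to 10.7, and grd-3 from 125 to 716. The lower gene, aff-1, a cell fusion gene used when seam cells fuse at the end of L4, had 6.73 and 1.38 FPKM. With H3.3 loss in daf-2, 3 of 8 were lower and 0 higher, beside 12.3% and 17.1% of all genes. grd-3 was among the lower ones, at 211 FPKM in the daf-2 triple. In nuo-6, 3 of 7 were lower, beside 5.47% of all genes, among them the GATA factor gene egl-18 (7.61 and 3.37 FPKM). With somatic scaling 0 were lower and 1 higher in nuo-6, beside 2.56% and 34.1% of all genes.

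Ratios between 2 genes of 1 pool do not depend on how pools are scaled. hbl-1 over lin-29 was 0.126 in WT, 0.172 in the double mutant, 1.04 in daf-2, 2.90 in the daf-2 triple, 0.190 in nuo-6 and 0.278 in the nuo-6 triple. Both daf-2 pools stood above 1 and the other 4 under 0.3. lin-28 over lin-29 gave 0.488, 0.598, 2.59, 4.95, 1.002 and 0.769 in that order. lin-41 over mab-10, which involves no gene with a shared locus of lin-29, was 0.450 in WT, 0.678 in the double mutant, 11.8 in daf-2, 9.74 in the daf-2 triple, 0.600 in nuo-6 and 1.03 in the nuo-6 triple. The 2 daf-2 pools were again the highest. hbl-1, lin-28 and lin-41 had been called higher, and lin-29 and mab-10 lower, for the daf-2 allele with and without H3.3 genes. These ratios thus restate those results and are no separate evidence. Oocyte genes summed to 36.2 FPKM in daf-2 and 3512 in the daf-2 triple, and their part in lin-41 was not tested. nhr-23 over nhr-25 set off another pool, the one with the lowest nhr-25: it was 9.30 in nuo-6 and between 2.27 and 3.96 elsewhere.

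**Figure D5:**
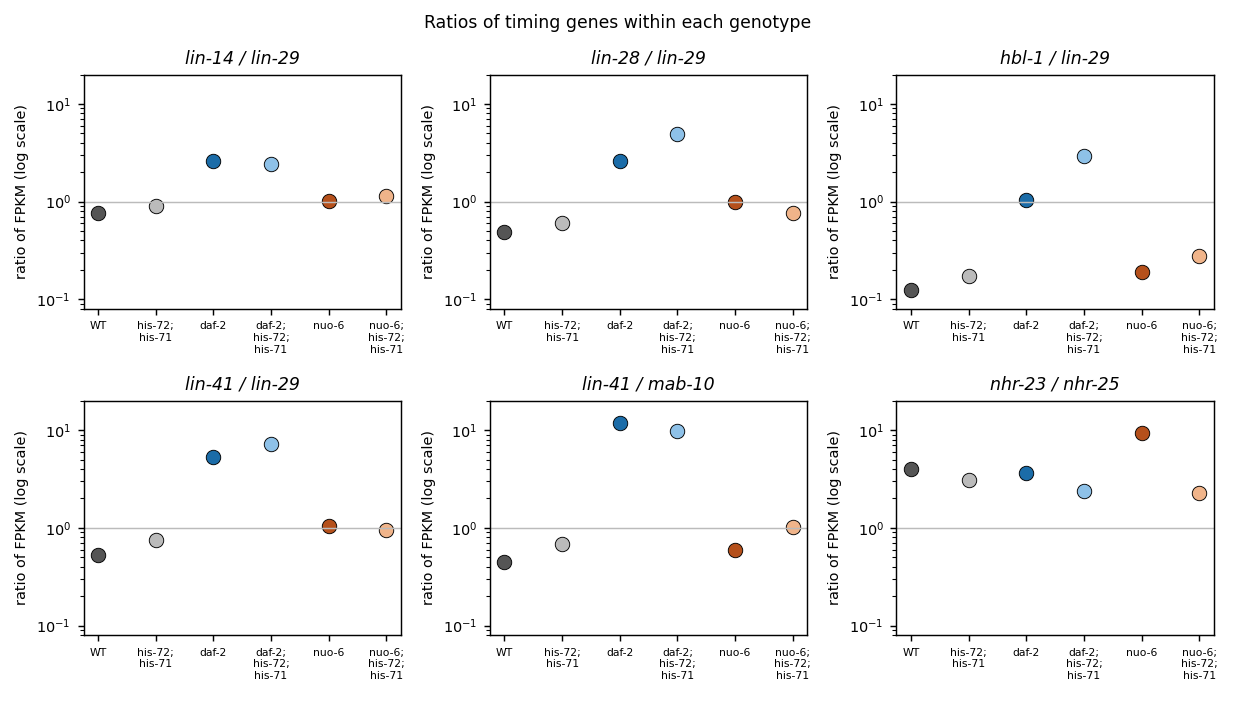
Ratio of FPKM between pairs of timing genes within each genotype, 1 point per pool on a common log axis, with a line at 1. The 2 daf-2 pools are highest in the first 5 panels, all of which divide by lin-29 or mab-10, both lowest in those pools. nuo-6 is highest for nhr-23 over nhr-25, and nhr-25 is lowest there.

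Among themselves, the members fell into like and unlike patterns over the 6 pools. Likeness was measured as the root mean square difference of log2 FPKM after centring each gene on its median, so 0 is an identical pattern. lin-42 and nhr-23 were closest (0.26), then lin-14 and dre-1 (0.27). lin-29 and hbl-1 were farthest apart (1.67).

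Over 12836 genes, those nearest each member were as follows. lin-28 was nearest B0457.6 (0.06), aakg-5 and ZK287.3 (both 0.12), and dre-1 was nearest F22E12.3 (0.06), ptr-6 (0.08), a patched-related gene, and C34F6.9 (0.10). For lin-14 they were Y71H2AM.10, anc-1 and rig-6 (all 0.07). nhr-23 was matched by hke-4.2, F21C10.7 and the muscle gene unc-22 (all 0.08), and lin-42 by T27A10.6 (0.08), the proton pump subunit gene vha-8 (0.09) and the ribosomal protein gene rpl-26 (0.11). nhr-25 had F59D12.2 (0.11) and then Y50D4B.1 and igcm-1 (both 0.17). Matches were looser for lin-46, with toh-1 (0.14), glit-1 and nlf-1 (both 0.19), and for lin-29, with K10C2.1 (0.13), mct-3 (0.20) and R07H5.8 (0.21). They were loosest for hbl-1, where T01B10.5 (0.19), scl-5 (0.22) and Y87G2A.25 (0.24) came nearest. With the daf-2 triple and nuo-6 left out, these 27 differences lay between 0.02 and 0.22. With 6 pools, many of 12836 genes come close to any pattern.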

How the data were processed

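Messenger RNA of 30 whole-worm samples was sequenced by the submitters, 5 for each of 6 genotypes. The authors deposited FPKM. FastQC, STAR, Cufflinks and Cuffdiff appear, with no version or role, in the submitters' processing notes. Each of 6 tables holds 1 FPKM value per gene for 1 genotype, and how the 5 replicates were combined, the depth, the strandedness and the genome build are not given in the sources used here. Values per replicate were not analysed here, so replicate error could not be estimated.

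FPKM were used as deposited (Python 3.11.15, pandas 2.3.3, numpy 2.4.6). Genes were compared where both values were above 0 and the higher was at least 5 FPKM, and counted from a ratio of 2. Background shares are over all compared genes. The fold rule and the likeness search were run on simulated data as a check of the code only. Large changes were planted in genes of at least 20 FPKM, so that run does not bear on 2-fold calls at low FPKM or on replicate error. Listed loci were set beside the WBcel235 annotation: 20179 genes matched by identifier, all on the same chromosome, 8975 with an identical start or end once 1 was added to starts. Of 169 genes in 15 lists 168 were found, 4 through their current symbol (myrf-1, myrf-2, mlt-2, mlt-3), and lep-2 was not analysed here. Members, lists and comparisons were chosen with earlier results of these data known, and after the tables were seen the early embryo list, the ranges without the daf-2 triple and nuo-6, and the list counts and differences of effects under other scalings. Named genes were the 9 members, the 4 mutated genes, up to 3 genes past the fold rule per list and comparison by size, and the 3 genes most like each member, among genes above 0 in all pools with at least 5 FPKM in the highest. Not all that this allows are printed, and a gene named in 1 comparison is also given in others. Alternatives were 2 scalings of pools, ratios of 1.5 and 3, a minimum of 20 FPKM or none, and a pseudocount of 1 FPKM.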

Additional observations from a re-analysis of the deposited data

How the results depend on the processing

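The number of members past the fold rule was 0 for H3.3 loss in WT, 3 for daf-2, 3 for daf-2 without H3.3 genes, 0 for H3.3 loss in daf-2, 1 for nuo-6, 0 for nuo-6 without H3.3 genes and 3 for H3.3 loss in nuo-6. With a ratio of 1.5 these became 1, 3, 7, 5, 5, 1 and 6. The share of all compared genes was then 7.5%, 48.5%, 48.2%, 55.6%, 45.9%, 25.5% and 42.2% in that order. The 5 members for H3.3 loss in daf-2 were thus no more than that share. In daf-2 without H3.3 genes the prevailing direction of the members turned, from 2 higher and 1 lower to 2 higher and 5 lower. With a ratio of 3 they were 0, 1, 2, 0, 1, 0 and 1. A minimum of 20 FPKM left 0 in nuo-6 and 0 for H3.3 loss in nuo-6, since fewer genes are then compared. The shares of all genes there were 24.7% and 19.7%. That minimum gave 2 for daf-2, beside 24.5% of all genes. Equal median ratios gave 2 in nuo-6 and 4 for H3.3 loss in nuo-6, beside 25.9% and 23.8%. Somatic scaling gave 2 for daf-2 and 1 for H3.3 loss in daf-2, beside 28.4% and 28.5%. No minimum changed none of the 7 counts, and 1 FPKM added to both values changed that of daf-2, to 2. Of the differences of the nuo-6 effect, 2 were at least 2-fold, 3 with equal median ratios, 1 with somatic scaling and 1 with the pseudocount. Of 63 log2 ratios of single members, 60 kept direction and side of the limit with equal median ratios, 53 with somatic scaling and 62 with the pseudocount, and no ratio past the limit changed sign. No paired analysis was possible because the tables hold 1 value per genotype; for the same reason no replicate could be left out. Unknown depth limits low values most, hbl-1, lin-46 and nhr-25 in nuo-6 among them.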
